A study of Canis lupus familiaris with 21 samples.

Results

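The 6 enzymes of the pentose phosphate pathway described here are PGLS, PGD, RPIA, RPE, TKT and TALDO1, 6 of the 21399 genes in the expression tables of canine cutaneous histiocytoma (CCH), a skin tumor of dogs with Langerhans cell features that usually regresses on its own. They were found by gene symbol, with 1 entry for each enzyme. The pathway was chosen by measured values of these data, namely the difference of RPIA between groups 3 and 2b in an earlier analysis. For that contrast the values and fold changes of the enzymes are therefore a description, and the call of RPIA, which the choice of the pathway fixed, is no evidence.

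RNA from formalin-fixed, paraffin-embedded tumors of dogs was measured by QuantSeq 3′ sequencing, which reads the 3′ ends of polyadenylated transcripts. Ages are those of the labels, which differ from the sample table of the study for 1 dog of a pool in group 2b. Group 1 (5 samples, dogs aged 0.5 to 5 years, 1 age not given) held stage 1 tumors, in which lymphocytes are absent by definition, and group 2a (5 samples, 0.6 to 3 years) held tumor cell-rich areas of stage 2. Group 2b (6 samples, 0.3 to 6 years, the age of 1 dog of a pool not given) held lymphocyte-rich areas of stage 2, and group 3 (5 samples, 1.5 to 9 years) held lymphocyte-rich stage 3 tumors. Samples of groups 1, 2a and 3 came from 1 dog each, whereas 4 of the 6 samples of group 2b were pools of tissue from 3 or 4 dogs. The breeds differed. Areas of stage 2 were chosen under the microscope for tumor cells or for lymphocytes, so that each sample is a tissue area and not a purified cell type. The groups consist of different dogs, so that stage and area are compared between animals and not within a tumor.

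The pathway branches off glycolysis at glucose 6-phosphate. Its oxidative branch makes NADPH, used for reductive synthesis and for defence against peroxides, and its non-oxidative branch interconverts pentose and hexose phosphates, so that a cell can draw ribose 5-phosphate for nucleotides or return carbon to glycolysis. Dividing cells need the pentose and activated phagocytes need the NADPH for their oxidative burst. In the oxidative branch PGLS opens a lactone ring, and PGD releases carbon dioxide and yields ribulose 5-phosphate. In the non-oxidative branch RPIA and RPE both act on that product, RPIA making ribose 5-phosphate and RPE xylulose 5-phosphate. TKT and TALDO1 then move short carbon units between the sugars.

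In the UU_Cfam_GSD_1.0 assembly, PGLS lies on chromosome 20 from 45703163 to 45710245 and TKT on the same chromosome from 36972262 to 36997252. PGD lies on chromosome 2 (84941328 to 84956541), RPIA on chromosome 17 (38091779 to 38122295), RPE on chromosome 37 (17734148 to 17753357) and TALDO1 on chromosome 18 (26139191 to 26147099). All 6 enzymes are annotated as protein-coding genes and are spread over 5 chromosomes.

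The samples held 2113393 to 3559404 reads assigned to genes. Markers of T cells (10 of 10 listed genes found) summed to 56.7 to 2062 normalized counts in group 1, 485 to 1534 in group 2a, 3061 to 4398 in group 2b and 3530 to 4935 in group 3. Group 1 thus held T cell transcripts in spite of its definition, although CD4 was listed at 0 in every sample of groups 1 and 2a and reached only 2.01 elsewhere. The 10 Langerhans cell and histiocyte markers summed to between 5203 and 8928 in all groups, with CD1A6 at 0 in groups 1 and 3 and at most 3.51 in the others. Keratinocyte markers (12 of 12 found) ran from 951 to 14049 in group 1, from 280 to 3516 in group 2a, from 202 to 2306 in group 2b and from 736 to 7983 in group 3. Median sums in groups 1, 2a, 2b and 3 were 3394, 2378, 560 and 841 for neutrophil markers, 3874, 3995, 3013 and 3016 for proliferation genes, 18482, 17304, 14762 and 15215 for fibroblast, 678, 535, 565 and 801 for endothelial and 71.8, 30.4, 9.29 and 27.2 for mast cell markers. In such bulk tissue, fewer cells of a type and less RNA per cell cannot be told apart.

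All 6 enzymes were detected in all 21 samples, the smallest raw count being 28 reads for RPE, and all 6 passed the filter of at least 10 counts in at least 5 samples. Values below are normalized counts, which are reads divided by 1 size factor per sample, and a value after ± is the SD over the samples of a group (n = 5 in groups 1, 2a and 3, n = 6 in group 2b). Since the assay reads transcript ends, counts were not divided by length and levels are compared between groups and not between genes. Together the 6 enzymes took 0.212% ± 0.0277, 0.227% ± 0.0459, 0.278% ± 0.0290 and 0.318% ± 0.0840 of all reads in groups 1, 2a, 2b and 3. The sum hides different courses of the single enzymes, with TALDO1 and PGLS nearly level, PGD highest in group 1, TKT highest in the lymphocyte-rich groups and RPIA highest in group 2b.

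**Figure D1:**
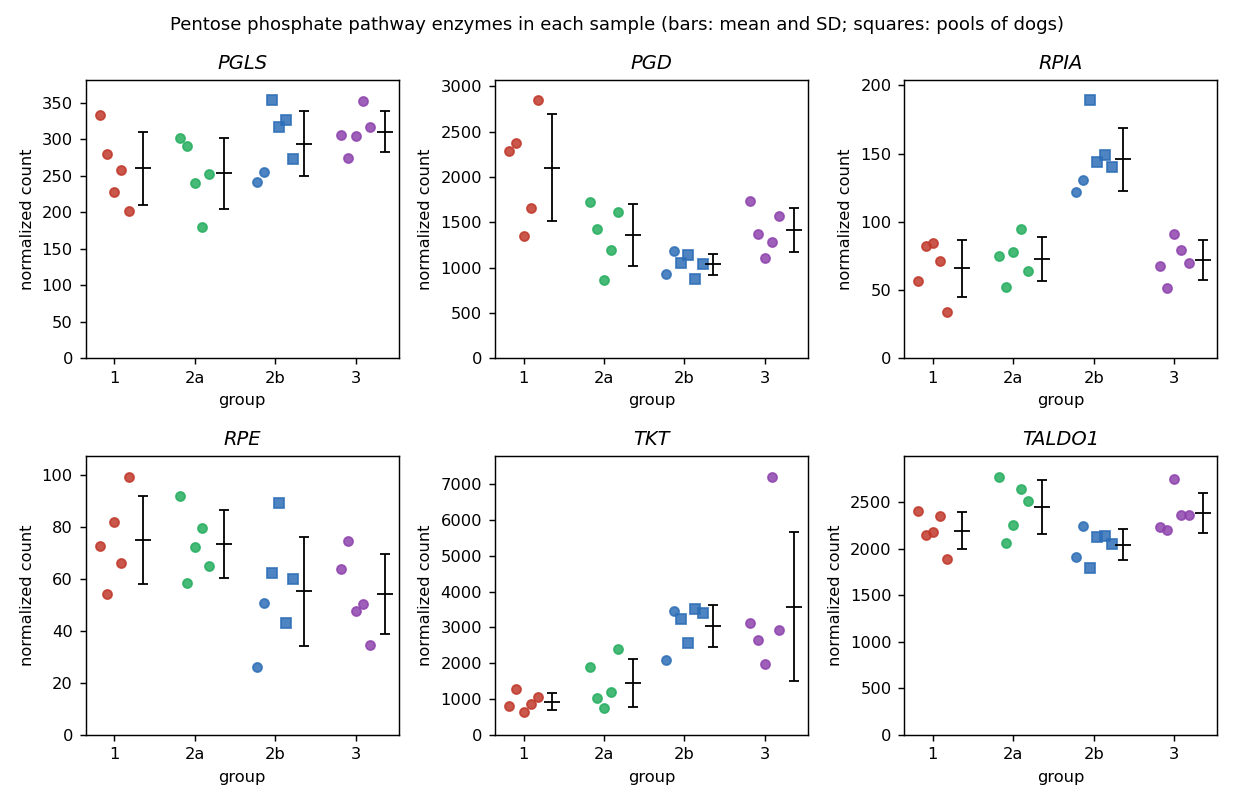
Normalized count (y axis, from 0) of each of the 6 enzymes in every sample, by group (x axis). Circles are samples of 1 dog, squares pools of dogs, and black bars the mean and SD of the group. The 6 samples of group 2b stand above all others for RPIA, and 1 sample of group 3 reaches 7214 for TKT.

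Among the enzymes of the oxidative branch, PGLS, the lactonase, varied little. Its level was 333, 279, 227, 258 and 202 normalized counts in the samples of group 1 and 302, 290, 240, 180 and 252 in group 2a. In group 2b it ran from 242 over a median of 295 to 353, and in group 3 it was 305, 274, 304, 352 and 317. All 4 groups overlapped, and the group means ran in the order 2a (253), 1 (260), 2b (294) and 3 (310). Neighbours in this order lay closer than the SD of either group of the pair. The SDs of the groups lay between 27.9 and 50.2.

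PGD, an NADPH-yielding enzyme, had its highest levels in group 1, with 2288, 2373, 1353, 1659 and 2843 normalized counts. In group 2a it was 1719, 1421, 866, 1192 and 1615, in group 2b 872 to 1185 with a median of 1047, and in group 3 1733, 1369, 1109, 1280 and 1569. Every sample of group 2b lay below every sample of group 1, while groups 2a and 3 overlapped with both. How many of all genes separate groups 2b and 1 in this way was not counted, so nothing is read from it. Means fell in the order 1 (2103 ± 594), 3 (1412 ± 244), 2a (1363 ± 343) and 2b (1036 ± 120). Groups 3 and 2a, neighbours in this order, differed by far less than their spread.

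RPIA, the isomerase that makes ribose 5-phosphate, stood out in group 2b. Its level was 56.7, 82.4, 84.7, 71.6 and 33.9 normalized counts in group 1, 75.1, 52.1, 77.8, 94.7 and 63.9 in group 2a, and 67.9, 51.9, 91.2, 79.6 and 70.2 in group 3. In group 2b it was 122 and 131 in the samples of 1 dog and 189, 144, 149 and 140 in the pools. The lowest sample of group 2b thus lay above the highest of the other 15 samples, which reached 94.7. How many of all genes part group 2b from the other samples in this way was not counted. The values of RPIA in group 2b also led to the choice of the pathway, so nothing is read from this order. The other 3 groups, with means of 65.9 ± 21, 72.7 ± 16.0 and 72.2 ± 14.6, overlapped throughout, and the mean of group 2b was 146 ± 23.1.

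RPE, the epimerase that competes with RPIA for ribulose 5-phosphate, did not share this course. It was 72.8, 54.3, 82.0, 66.1 and 99.4 normalized counts in group 1, 91.8, 58.4, 72.2, 79.5 and 64.9 in group 2a, and 64.0, 74.5, 47.5, 50.4 and 34.6 in group 3. Group 2b ran from 26.1 over a median of 55.3 to 89.1, so that all groups overlapped. Group means ran from 54.2 ± 15.4 in group 3 and 55.2 ± 21.1 in group 2b to 73.4 ± 13.0 in group 2a and 74.9 ± 17.0 in group 1.

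A ratio within a sample does not depend on the size factor. The log2 ratio of RPIA to RPE was −0.23 ± 0.81, −0.02 ± 0.21, 1.48 ± 0.52 and 0.44 ± 0.65 in groups 1, 2a, 2b and 3. It ran from 0.70 to 2.23 in group 2b, above all samples of groups 1 and 2a (highest 0.60), and from −0.52 to 1.02 in group 3, so that groups 2b and 3 overlapped on this scale. The ratio holds the RPIA counts of group 2b by which the pathway was chosen. It is therefore a description and no separate evidence.

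TKT, transketolase, had the widest range of the 6 enzymes, 650 to 7214 normalized counts. It was 800, 1268, 650, 853 and 1065 in group 1 and 1903, 1025, 755, 1210 and 2388 in group 2a. In group 2b it ran from 2084 over a median of 3316 to 3529, and in group 3 it was 3135, 2646, 1988, 7214 and 2917. All lymphocyte-rich samples lay above all samples of group 1, and only 2 samples of group 2a, with 1903 and 2388, came near or into their range. The share of all genes that part the lymphocyte-rich samples from group 1 was not counted, so nothing is read from this order. Means rose in the order 1 (927 ± 242), 2a (1456 ± 672), 2b (3045 ± 585) and 3 (3580 ± 2077), the last being raised by the sample with 7214.

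TALDO1, transaldolase, was the steadiest. It was 2410, 2143, 2180, 2351 and 1892 normalized counts in group 1, 2774, 2060, 2257, 2637 and 2509 in group 2a, 1791 to 2246 with a median of 2090 in group 2b, and 2235, 2201, 2745, 2358 and 2362 in group 3. Its coefficient of variation over all 21 samples was 11.6%, against 65.9% for TKT, 42.8% for RPIA, 35.6% for PGD, 29.2% for RPE and 16.7% for PGLS. The log2 ratio of TKT to TALDO1 was −1.28 ± 0.45, −0.86 ± 0.58, 0.55 ± 0.29 and 0.44 ± 0.75 in groups 1, 2a, 2b and 3.

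**Figure D2:**
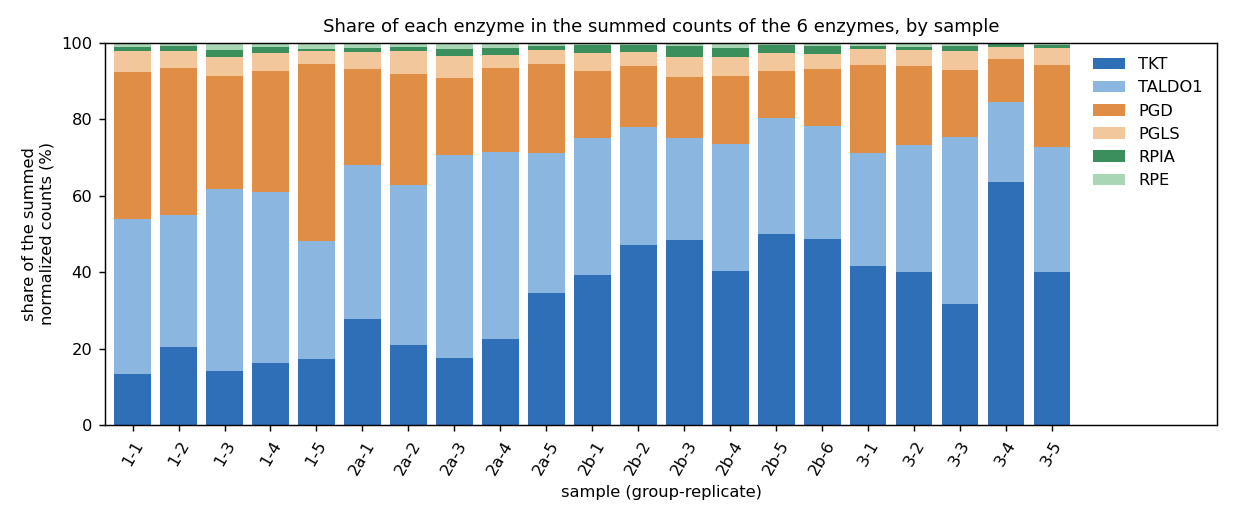
Share (y axis, %) of each enzyme in the summed normalized counts of the 6 enzymes, 1 bar per sample (x axis, group and replicate). TKT takes 13.4% to 20.5% in group 1 and 39.2% to 50.0% in group 2b, and PGD takes 29.6% to 46.3% in group 1 and 12.4% to 17.8% in group 2b.

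As a share of the summed counts of the 6 enzymes, TKT made up 16.3% ± 2.79, 24.7% ± 6.65, 45.6% ± 4.68 and 43.4% ± 12 in groups 1, 2a, 2b and 3. PGD took the opposite course, with 36.8% ± 6.62, 24.0% ± 3.29, 15.8% ± 1.97 and 18.8% ± 4.65. Shares of 1 sum are tied to each other, so that a higher share of TKT lowers the others.

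The first comparison, of tumor cells in stage 2 and stage 1, was group 2a against group 1. In the edgeR fit over 11200 genes, 0 of the 6 enzymes were called, where a call took an adjusted p no higher than 0.05 together with a log2 fold change of 1 or more in either direction, and 0.393% of all tested genes were called. At an unadjusted p under 0.05 there were 2005 genes. PGD had a log2 fold change of −0.62 (SE 0.238, edgeR adjusted p = 0.200, 0.0665 to 0.896 over the alternative settings), with 2 of 5 samples of group 2a below all of group 1. With DV200, the share of longer RNA fragments, as a covariate, its value was −0.22, and with the RNA quality number (RQN) −0.13. The DV200 was 68.5% ± 2.46 in group 1 and 73.7% ± 2.69 in group 2a. TKT had 0.66 (SE 0.302, edgeR adjusted p = 0.280), with 2 of 5 samples of group 2a above all of group 1. The other 4 enzymes lay between −0.04 and 0.16, with edgeR adjusted p between 0.584 and 0.974. The median over the 6 enzymes was 0.06, and −0.02 over all tested genes, and for none of the 6 were the groups free of overlap, against 5.65% of the tested genes.

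**Figure D3:**
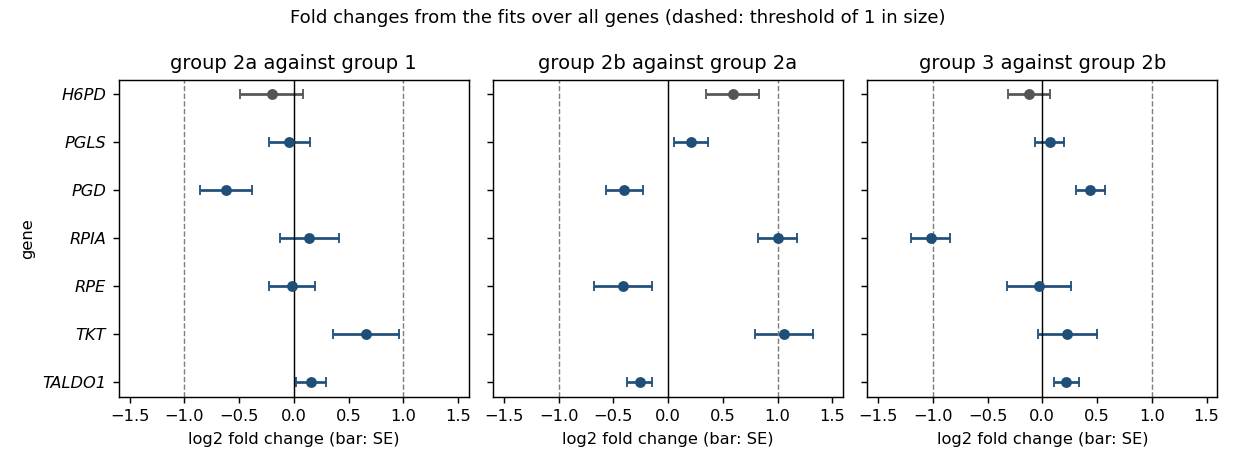
Log2 fold change (x axis) of the 6 enzymes (blue) and of H6PD (grey) in the 3 comparisons, with the standard error as bars. TKT and RPIA lie at 1.06 and 1.00 in group 2b against group 2a, and RPIA at −1.02 in group 3 against group 2b.

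Lymphocyte-rich and tumor cell-rich areas of stage 2 were compared as group 2b against group 2a, a contrast that the study did not make and that shares its samples with the other comparisons. TKT was higher in group 2b, with a log2 fold change of 1.06 (SE 0.264, edgeR adjusted p = 0.0136) and 5 of 6 samples of group 2b above all of group 2a. Leaving out each sample in turn gave 0.89 to 1.31, with an edgeR adjusted p between 0.00244 and 0.0383. The fold fell to the threshold or under it without replicate 2 (0.95), replicate 3 (0.89) or replicate 4 (1.00) of group 2a, which ended the call. With RQN as a covariate the value was 0.71 (SE 0.626, edgeR adjusted p = 0.670), and with only the 2 samples of 1 dog in group 2b it was 0.93 (edgeR adjusted p = 0.302). In the sample table of the study, every sample of group 2b had a lower RQN than every sample of group 2a. RNA quality and area therefore cannot be told apart in this comparison. T cell markers were also higher in group 2b, with a median sum of 637 in group 2a and 3294 in group 2b. So were those of B cells (634 and 1268) and plasma cells (170 and 636). Within groups, T cell sums and TKT did not always go together. In group 2a, replicate 5 was highest in both (1534 and 2388), but replicate 1 had the lowest T cell sum, 485, with 1903 for TKT. In group 2b, replicate 4 had the highest T cell sum, 4398, with 2572 for TKT. The part of these cells in the result was not tested.

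RPIA had a log2 fold change of 1.00 (SE 0.176) between the same groups, given as a description since the samples of group 2b are those by which it came into the set. PGD (−0.40, SE 0.168), TALDO1 (−0.26, SE 0.117), RPE (−0.41, SE 0.262) and PGLS (0.21, SE 0.156) did not pass, with edgeR adjusted p of 0.126, 0.146, 0.319 and 0.395. The value of RPE was −1.77 with RQN as a covariate (SE 0.516, edgeR adjusted p = 0.145) and −0.92 with only the samples of 1 dog in group 2b (SE 0.348, edgeR adjusted p = 0.243). Leaving RPIA aside, 1 of the other 5 enzymes, TKT, was called, where 9.55% of 11545 tested genes were called and 5.98% were called higher. RPIA lay at the fold threshold itself, at 0.99 with upper-quartile factors, at 0.81 with the samples of 1 dog in group 2b alone and at 0.53 with RQN as a covariate. The median over the 6 was −0.03, against −0.01 over all tested genes. The groups overlapped for all of the other 5 enzymes, where 10.5% of tested genes had groups without overlap and 6.07% had group 2b higher. For RPIA the lack of overlap goes back to the values that chose it, and nothing is read from it.

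The last comparison, of lymphocyte-rich areas in stage 3 and stage 2, was group 3 against group 2b. RPIA had a ratio of means of 0.495 and a log2 fold change of −1.02 (SE 0.181). Its groups did not overlap. PGD had a log2 fold change of 0.44 (SE 0.135), with 4 of 5 samples of group 3 above all of group 2b. TALDO1 had 0.22 (SE 0.114) with 3 of 5 samples above all of group 2b, TKT 0.23 (SE 0.269), PGLS 0.07 (SE 0.132) and RPE −0.03 (SE 0.289). Without the sample of group 3 that had 7214 normalized counts, TKT turned to −0.19, and with DV200 as a covariate to −0.11. The DV200 of 1 sample of group 3 differs between the labels, used here, and the sample table of the study. RPE turned to 0.55 with RQN as a covariate and to 0.50 with only the samples of 1 dog in group 2b, and PGD had 0.71 with RQN. Of the 6 enzymes 1 was called, RPIA, where 0.0428% of 11685 tested genes were called and 0.0342% were called lower, and its groups alone did not overlap, which held for 2.11% of the tested genes in either direction and 0.924% in that of RPIA. Nothing is read from either count, because this contrast and this gene chose the pathway.

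In RPIA, both samples of group 2b that came from 1 dog (122 and 131) exceeded every sample of group 3, and its log2 fold change was −0.81 with these 2 samples alone and −1.11 with the 4 pools alone. It was −0.96 with DV200 and −1.05 with RQN as a covariate, and between −1.11 and −0.92 when each sample was left out. These folds describe the contrast that chose the pathway, so that their stability is no evidence. Among markers, the median sum of B cell genes moved with RPIA by group. It was 634 (339 to 868) in group 2a, 1268 (1029 to 1745) in group 2b and 533 (289 to 1939) in group 3. That of plasma cell genes did too, with 170 (110 to 1011), 636 (241 to 1172) and 191 (74.4 to 508). In group 3, replicate 3 was highest in both B cell sum and RPIA (1939 and 91.2). Its B cell sum exceeded that of every sample of group 2b, but its RPIA lay below all of them. The B cell gene CD22 had means of 560, 558 and 441 in groups 2a, 2b and 3, whereas every other listed B cell gene had its highest mean in group 2b. The part of these cells in the level of RPIA was not tested.

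H6PD, not among the 6 enzymes, carries out the opening steps of the oxidative branch in the endoplasmic reticulum. It had 141 ± 40.8, 123 ± 44.6, 185 ± 40.0 and 171 ± 43.1 normalized counts in groups 1, 2a, 2b and 3. It did not pass the test in any comparison, with −0.20 (SE 0.288, edgeR adjusted p = 0.780) for group 2a against group 1, 0.59 (SE 0.243, edgeR adjusted p = 0.120) for group 2b against group 2a and −0.12 (SE 0.193, edgeR adjusted p = 0.846) for group 3 against group 2b.

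The 6 enzymes did not move as 1 block. Over 21 samples, Pearson correlations of log2(normalized count + 1) between pairs ran from −0.72 for PGD and RPIA to 0.52 for PGLS and TKT, as a description, with the samples sharing group and size factor. PGD and RPIA had −0.59 over the 10 tumor cell-rich and −0.77 over the 11 lymphocyte-rich samples, and −0.52 after the group means were removed. RPIA and RPE, which share their substrate, had −0.34 over all samples and −0.09 after removal of the group means.

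Among 10404 other genes, those most alike over the 21 samples were MNDA (r = 0.86) and TMBIM6 (0.85) for RPIA, STK40 (0.91) and FYB1 (0.90) for TKT, and LOC607300 (0.89) and RFNG (0.87) for PGD. For RPE they were ITGB7 (0.76) and MYCBP (0.73), for PGLS ZNF507 (0.75) and PLAC8B (0.72), and for TALDO1 MED11 and SPAG7 (both 0.71).

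Around the pathway, 6 lists of genes were followed. Of 11 entry and side enzymes, H6PD included, 9 were found and 7, 8 and 8 were tested in the 3 comparisons, with 0 called in each, and the others were not analysed here. Of all tested genes, 0.393%, 9.55% and 0.0428% were called in groups 2a against 1, 2b against 2a and 3 against 2b. In groups 2a against 1 and 3 against 2b, 0 genes of any of the 6 lists were called. With such shares nothing is read from these counts of 0. In these 2 comparisons the list medians were −0.24 to 0.10 and −0.19 to 0.09 on the log2 scale (−0.02 and 0.01 over all tested genes).

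In group 2b against group 2a, 2 of 17 tested glycolysis genes were called, both higher, a count to be read against 9.55% of all tested genes called and 5.98% called higher. HK2, a hexokinase that supplies glucose 6-phosphate, had 212 ± 106 against 53.6 ± 49.3 normalized counts (log2 fold change 1.95, SE 0.594, edgeR adjusted p = 0.0375), and ENO2, an enolase, 59.2 ± 16.1 against 20.4 ± 6.37 (1.52, SE 0.283, edgeR adjusted p = 0.00224). The call of HK2 held under 10 of 23 alternative settings, in which its log2 fold change ran from 0.84 to 2.61 and the adjusted p from edgeR, DESeq2 or limma from 0.0223 to 0.854. The median over the glycolysis list was 0.35, with −0.01 over all tested genes. Of 20 tested genes of PRPP and nucleotide synthesis, which use the ribose 5-phosphate that RPIA makes, 0 were called higher and 1 lower, with 9.55% of all tested genes called. This was IMPDH2, of guanine nucleotide synthesis, with 289 ± 21.7 against 637 ± 122 (−1.14, SE 0.138, edgeR adjusted p = 0.000126).

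Among 20 tested genes of NADPH use and antioxidant defence, 2 were called higher and 1 lower in the same comparison, in which 9.55% of all tested genes were called, so that neither this list nor glycolysis is set apart by its count. NCF1 (1.33, SE 0.270, edgeR adjusted p = 0.00410) and CYBB (1.42, SE 0.447, edgeR adjusted p = 0.0432) encode parts of the phagocyte NADPH oxidase and were higher in group 2b, although the call of CYBB held under only 6 of 23 alternative settings (adjusted p from edgeR, DESeq2 or limma 0.0106 to 0.848). GPX4, a peroxidase that protects membrane lipids, was lower (−1.77, SE 0.261, edgeR adjusted p = 0.000539). The calls of GPX4, NCF1, ENO2 and IMPDH2 held under 22 of 24 alternative settings each, the exceptions being RQN as a covariate and the samples of 1 dog in group 2b alone. Of the 8 tested genes of other NADPH sources and the 6 tested regulators, 0 were called in any comparison. The shares of all tested genes called were 0.393% in group 2a against 1, 9.55% in 2b against 2a and 0.0428% in 3 against 2b. Nothing is read from these counts of 0. In group 2b against group 2a, the list medians were −0.02 for entry and side enzymes, −0.20 for nucleotide synthesis, −0.01 for NADPH use, 0.20 for other NADPH sources and 0.16 for regulators. The lists were chosen with earlier results of these data known.

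**Figure D4:**
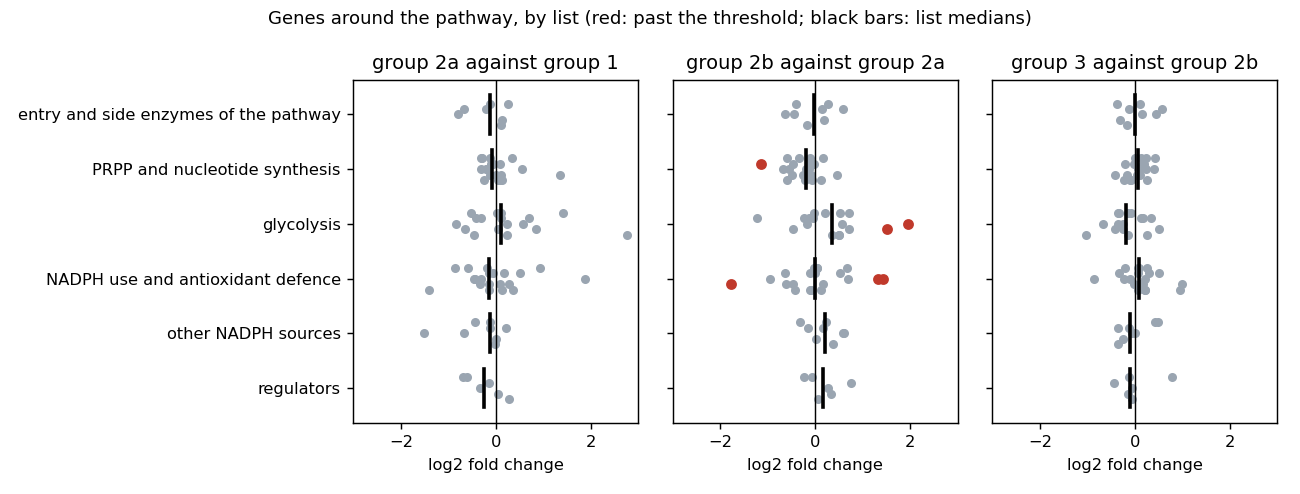
Log2 fold change (x axis) of each tested gene of the 6 lists (rows) in the 3 comparisons, with genes past both thresholds in red and list medians as black bars. Red points, 6 in all, appear only in group 2b against group 2a, among nucleotide synthesis, glycolysis and NADPH use.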

How the data were processed

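QuantSeq 3′ FWD libraries of 21 tumor samples were analysed. Per the labels, the authors trimmed reads with cutadapt, aligned them with STAR, counted them with featureCounts and normalized with DESeq2. Strand and multi-mapping settings are not given in the sources used here. The authors deposited raw counts per gene and normalized counts, the counts divided by 1 size factor per sample (0.855 to 1.27), a signal without length correction. They also deposited log2 fold changes, p-values and adjusted p-values of their own comparisons, which were not used.

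Levels are the deposited normalized counts. Comparisons were made on the raw counts with edgeR 4.0.16 (quasi-likelihood test, TMM factors, the samples of both groups only) over genes with at least 10 counts in at least 5 samples. Genes were called where the p adjusted over all tested genes (Benjamini-Hochberg) did not exceed 0.05 and the log2 fold change reached 1 in either direction. The standard error is the fold change divided by the root of its F statistic. The procedure was tested on simulated data, which held no pools and no differences in RNA quality or cell mixture, so that the test does not cover these. DESeq2 1.42.0, limma 3.58.1 on log2(normalized count + 1, 0.5 or 5), other filters and factors, DV200 and RQN as covariates, a replicate block, single samples left out and single-dog or pooled samples of group 2b were alternatives, those for list genes being added after the data were seen. RQN was taken from the sample table of the study.

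The 6 enzymes and all lists were chosen with earlier results of these data known, and 1 item of the lists is not reported here. Named were the 6 enzymes, H6PD, up to 4 called genes per list with the largest fold, and the 2 genes most alike each enzyme among those with at least 10 counts in at least 15 samples. Samples of a group are tumors of different dogs, except that pools mix dogs. Depth was 2113393 to 3559404 counts per sample.

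Replicate numbers did not pair the samples, which came from different dogs.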

Additional observations from a re-analysis of the deposited data

Results flagged for a closer look

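TKT in group 3 replicate 4 had 7214 normalized counts, and the next sample of its group had 3135. The gap took 0.781 of the range of the group, above the critical value of 0.710 for 5 samples. This was 1 of 28 groups of samples looked at over 7 genes, of which chance flags about 1 in 20. Without this sample the log2 fold change of TKT in group 3 against group 2b was −0.19 instead of 0.23. The T cell markers of this sample summed to 4935, the highest of its group (3530 to 4935), and their part in the level of TKT was not tested.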

How the results depend on the processing

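In group 2a against group 1, 0 of the 6 enzymes were called under any alternative, while the genes called, 44 in all, became 262 with DESeq2, 77 with 10 counts in every sample, 184 with all 4 groups in 1 fit, 0 with DV200, 2 with RQN, 0 with the replicate block, 5, 0 and 12 with limma at pseudocounts of 1, 0.5 and 5, and 0 to 78 with single samples left out. Small values turned sign: with DV200 RPIA (−0.33), TALDO1 (−0.01) and H6PD (0.02), with RQN RPE (0.07) and H6PD (0.31), without a filter RPE (0.00), and with single samples left out PGLS (−0.12 to 0.09, positive at 0.06 and 0.09), RPIA (−0.02 to 0.25) and RPE (−0.12 to 0.09, positive at 0.01, 0.05 and 0.09).

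In group 3 against group 2b, the 5 called genes became 52 with DESeq2, 3 without a filter, 2 with all 4 groups, 2 with DV200, 0 with RQN, 1 with the replicate block, 0 with limma at pseudocounts of 1 and 0.5, 0 with only single-dog and 0 with only pooled samples of group 2b, and 0 to 50 with single samples left out. The count of enzymes called, 1, is RPIA, by whose difference the pathway was chosen, so that its stability is no evidence. It was 0 without a filter, with all 4 groups, DV200, RQN, the replicate block, limma at each pseudocount, or single-dog or pooled samples alone, and 0 to 1 with single samples left out. RPE turned from −0.03 to 0.55 with RQN and 0.50 with single-dog samples, and H6PD to 0.03 and 0.14. PGD moved from 0.44 to 0.71 with RQN and PGLS from 0.07 to 0.32 with single-dog samples.

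In group 2b against group 2a, the 1102 called genes became 670 with 10 counts in every sample, 42 with RQN and 111 with single-dog samples, and 918 to 1190 with single samples left out. The 2 enzymes called, TKT and RPIA (the latter a description), became 1 with DESeq2, upper-quartile factors, no filter, DV200 or limma at a pseudocount of 5, 0 with RQN or single-dog samples, and 0 to 2 with single samples left out. PGLS turned to −0.14 with RQN and −0.02 with single-dog samples, and H6PD to −0.18 with RQN. RPE moved from −0.41 to −1.77 with RQN and −0.92 with single-dog samples, PGD from −0.40 to −0.69 and RPIA from 1.00 to 0.53 with RQN. Only group 2b was pooled, so pooling and area cannot be fully told apart. The RQN was lower in every sample of group 2b than in any of group 2a, so RNA quality and area cannot be told apart either. The replicate block, with correlations of deviations between same-numbered samples of −0.32 to 0.14, changed no other call of the 6 enzymes. The cause of these changes was not tested. The lowest counts were 28 reads for RPE and 31 for RPIA.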
